A study of Mus musculus with 6 samples.

Results

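The tubulin genes and the stathmin gene Stmn1 were examined in RNA-seq libraries of small pre-B cells. Members were taken from the deposited count table by gene symbol: Tuba1a, Tuba1b, Tuba1c and Tuba4a (alpha tubulins), Tubb2a, Tubb4b, Tubb5 and Tubb6 (beta tubulins), Tubg1 (gamma tubulin) and Stmn1. These are 10 of the 49997 symbols in the table, and all 10 are listed. The list was built around Tubb4b because that gene differs between the genotypes of this study, so the genotype differences of its members are given as a description, without a test of their own.

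The cells came from the bone marrow of C57BL/6 mice aged 6 to 12 weeks that were either wild type (WT) or of the genotype ΔrsCBE, with 3 libraries each. The symbol Δ marks a deletion; the series title places it in a study of CTCF, a protein that organises chromatin loops, and of receptor editing, the replacement of an autoreactive immunoglobulin light chain. The labels do not say which bases are deleted, whether the libraries come from separate animals or whether animals were pooled, so the spread between replicates may be technical in part. Total counts lay between 428106 and 1300805 per library, low for RNA-seq, and replicates of a genotype differed by more than sampling noise in all 6 pairs (chi-square per degree of freedom from 1.78 to 3.18). No label gives the sex. By Xist and Y-linked counts the WT libraries were all male and ΔrsCBE held both sexes, so sex was partly confounded with genotype. ΔrsCBE replicates 2 and 3 had 1603 and 1430 Xist counts, and the remaining 4 libraries had at most 1. Y-linked counts (Ddx3y, Eif2s3y, Kdm5d, Uty) were found in those 4 alone. The B-lineage markers Cd79a, Cd79b, Pax5, Ebf1, Rag1, Rag2 and Il7r were present in every library. Levels are given in CPM, which stands for counts after scaling every library to one total.

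Microtubules are hollow polymers of alpha and beta tubulin dimers. Gamma tubulin sits in a ring complex that starts new microtubules, and stathmin binds free dimers and promotes shrinkage. In dividing cells the polymer is rebuilt into the mitotic spindle. Large pre-B cells divide, whereas most small pre-B cells are quiescent and recombine light chain genes. Cells also measure their free tubulin: when much of it is unpolymerised, the factor TTC5 recognises the start of a new alpha or beta tubulin chain on the ribosome and the mRNA is degraded.

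The bases that encode the recognised start of the chain are shown first, since they set the alpha and beta tubulins apart from the other members. Each line gives the first 24 bases of the coding sequence, read from the GENCODE M21 transcript (GRCm38) with the longest coding sequence, and the capitals mark the first 4 codons.
Tubb4b: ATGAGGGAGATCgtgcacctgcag
Tubb5: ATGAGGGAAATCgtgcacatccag
Tubb2a: ATGCGCGAGATCgtgcacatccag
Tuba1b: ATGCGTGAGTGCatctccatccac
Tuba4a: ATGCGCGAGTGCatttcagtccat
Tubg1: ATGCCGAGAGAAatcatcacccta
Stmn1: ATGGCATCTTCTgatattcaggtg
Against Tubb4b, the capital stretch of Tubb5 differed at 1 base and that of Tubb2a at 2 bases. The capitals of these beta tubulins encode the same 4 amino acids, so the base differences do not change the start of the chain. Those of the alpha tubulins encode another amino acid at codon 4 alone. The alpha tubulins Tuba1a, Tuba1b, Tuba1c and Tuba4a each differed from it at 4 bases, Tubg1 at 8 and Stmn1 at 9.

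How similar the members are also bears on what their counts mean. The coding sequence of Tuba1b was 98.3% identical to that of Tuba1a and 98.0% identical to that of Tuba1c, whereas Tubb4b and Tubb5 were 82.4% identical. Of all 100-base windows of the Tuba1b transcript, 73.0% occurred in a transcript of another gene, against 65.8% for Tuba1a and 53.4% for Tuba1c. For Tubb4b the share was 30.6%, with Tubb4b-ps1, a processed pseudogene, Fam166a and Tubb4b-ps2 among the genes that hold them. Tubb5 shared 0% of its 2550 windows and Stmn1 26.1%. How reads that fit several places were counted is not given in the sources used here, so counts of the Tuba1 genes, Tubb2a, Tubb4b and Stmn1 are uncertain to that extent. For Tuba4a the shared windows (46.7%) lay in Stk16, which overlaps it on the opposite strand; Tubb4b overlaps Fam166a on the opposite strand over 121 bases, and the strand setting of the counting is not given either. GENCODE M21 also places Gm49450 on the same strand across 3715 bases of Tuba1a and 2429 bases of Tuba1b.

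By counts per length, Tubb5 ranked highest among the members in WT cells and Tubb4b came next. The shared windows given above limit this order for the Tuba1 genes, Tubb2a, Tubb4b and Stmn1. Tubb5 stood at 344 ± 36.9 CPM per kilobase of annotated exon (SD, n = 3) and Tubb4b at 113 ± 5.08, with no overlap between their libraries. Stmn1 followed at 39.1 ± 15.2 CPM per kilobase, Tubg1 at 13.5 ± 1.63 and Tuba1b at 10.3 ± 2.57; the ranges of Tubg1 and Tuba1b overlapped. Tubb2a (4.83 ± 1.68), Tuba1a (3.87 ± 2.47) and Tuba1c (3.07 ± 3.23 CPM per kilobase) could not be ordered beyond their spread. Tuba4a had 0.802 ± 0.460 CPM per kilobase. Tubb6 had 0 counts in all 6 libraries, and the 3-count floor (3 counts taken as the smallest detectable amount, counting error only) lay between 2.38 and 7.36 CPM. In ΔrsCBE the order at the top was kept, with 212 ± 43.1 CPM per kilobase for Tubb5 and 47.6 ± 13.5 for Tubb4b, but the libraries of Tubb4b overlapped those of Stmn1 (23.5 ± 14.4).

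The beta tubulins Tubb4b and Tubb5 were lower in each ΔrsCBE library than in any WT library. Tubb4b (minus strand of chromosome 2, from 25222160 to 25224702 in GENCODE M21, GRCm38), a broadly expressed beta isotype, stood at 224, 238 and 245 CPM in the WT libraries (replicates 1 to 3, as throughout) and at 88.4, 131 and 78.3 CPM in the ΔrsCBE libraries. The WT libraries lay close together, and among the ΔrsCBE libraries replicate 2 was the highest and nearest to WT. The means were 235 ± 10.6 and 99.3 ± 28.1 CPM (SD, n = 3), which edgeR fitted as a log2 difference of -1.23 (standard error, SE, 0.17), or 2.35-fold lower in ΔrsCBE. Fewer cells with this mRNA and less of it per cell cannot be told apart in these bulk libraries.

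Tubb5 (minus strand of chromosome 17, from 35833921 to 35838306), the major beta tubulin of proliferating and lymphoid cells, stood at 1025, 1270 and 1135 CPM in the WT libraries. In the ΔrsCBE libraries it had 840, 722 and 554 CPM. The groups did not overlap, and the lowest value was in ΔrsCBE replicate 3, not in the library nearest to WT for Tubb4b. Its means of 1143 ± 123 and 706 ± 144 CPM (SD, n = 3) correspond to a fitted log2 difference of -0.69 (SE 0.12), or 1.62-fold lower. In the comparison restricted to the 4 libraries with at most 1 Xist count, which sets ΔrsCBE replicate 1 alone against the 3 WT libraries and takes its spread from WT, the log2 difference of Tubb5 was -0.44 and not past the threshold (an adjusted p-value of 0.05 over all genes). Tubb4b stood at -1.42 there and was past it.

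The other beta members were scarce. Tubb2a, an isotype best known from neurons, had between 2 and 13 counts per library, with 7.77 ± 2.71 CPM in WT and 6.22 ± 2.60 CPM in ΔrsCBE, and its groups overlapped. Its neighbour on chromosome 13, Tubb2b, which is no member, was more abundant. It stood at 90.9, 68.7 and 94.2 CPM in the WT libraries and at 71.4, 110 and 96.0 CPM in the ΔrsCBE libraries. The groups overlapped, at a log2 difference of 0.09 (SE 0.19; adjusted p 0.936, edgeR); the sign was negative (-0.06) without ΔrsCBE replicate 2 and (-0.29) in the 4 libraries with at most 1 Xist count.

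**Figure D1:**
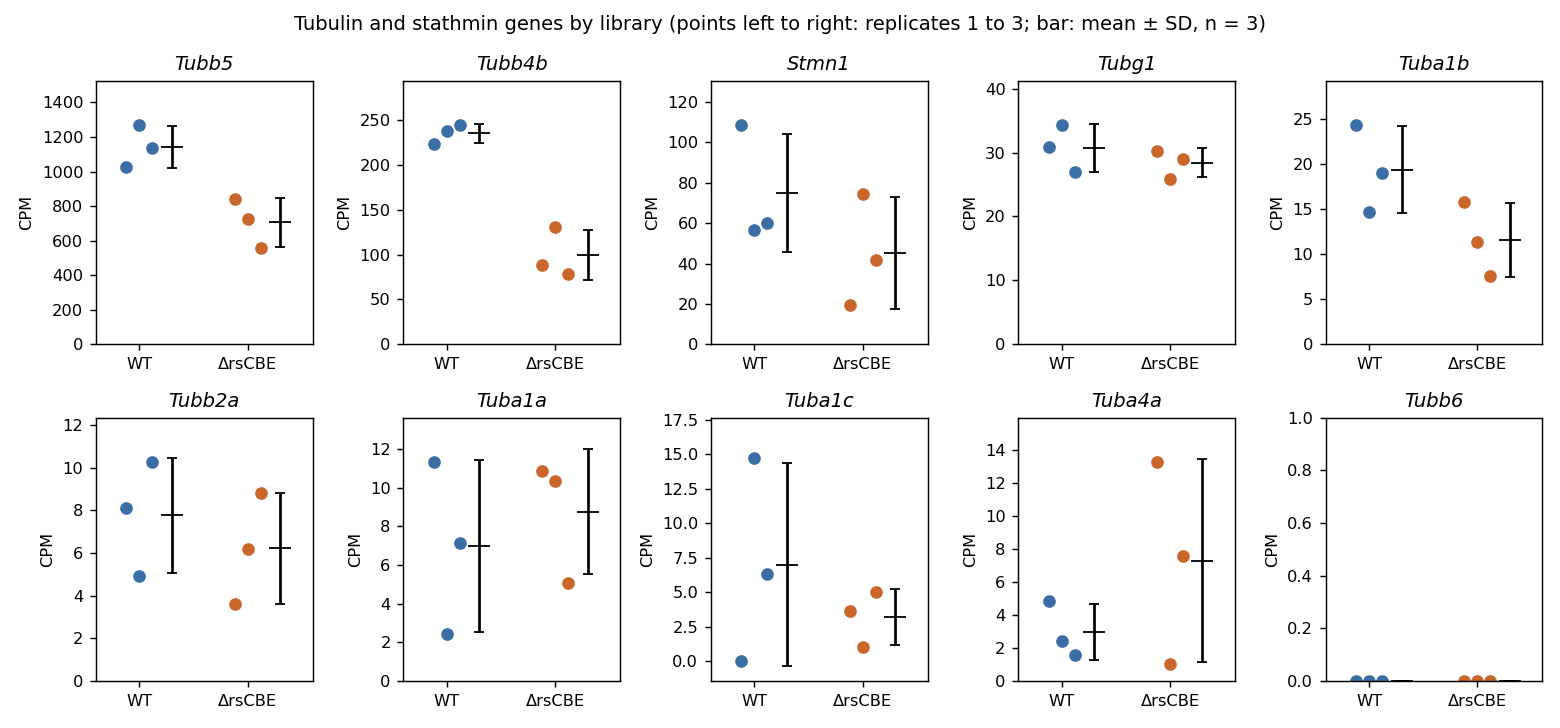
CPM of each tubulin and stathmin gene, one panel a gene with its own linear axis; points are libraries, and the bar beside each group is the mean ± SD (n = 3). Tubb5 and Tubb4b show separate groups, Tubb4b at 224 to 245 CPM in WT and 78.3 to 131 CPM in ΔrsCBE, and the other panels overlap.

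Since both leading beta isotypes were lower, their proportion was compared. Tubb4b made up 16.6% (95% Wilson interval 14.2% to 19.3%), 15.0% (12.5% to 18.0%) and 16.5% (14.9% to 18.2%) of the beta tubulin counts in the WT libraries. Its share in the ΔrsCBE libraries was 8.81% (7.06% to 10.9%), 13.5% (11.5% to 15.9%) and 10.6% (8.37% to 13.4%). All ΔrsCBE shares were below all WT shares, but the interval of ΔrsCBE replicate 2 overlapped those of all WT libraries and that of ΔrsCBE replicate 3 the one of WT replicate 2; intervals cover counting error only. Tubb5 kept the largest share in every library, between 74.5% and 83.7%. Tubb2b supplied 4.34% to 6.74% in WT, against 7.12%, 11.3% and 13.01% in the ΔrsCBE libraries. Counts of Tubb4b amounted to 20.7% ± 1.72 of those of Tubb5 in WT and 14.3% ± 3.83 in ΔrsCBE (SD, n = 3), so Tubb4b was lowered more than Tubb5 on average, a description without a test; in ΔrsCBE replicate 2 the proportion was 18.2%, close to the 18.7% of WT replicate 2.

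**Figure D2:**
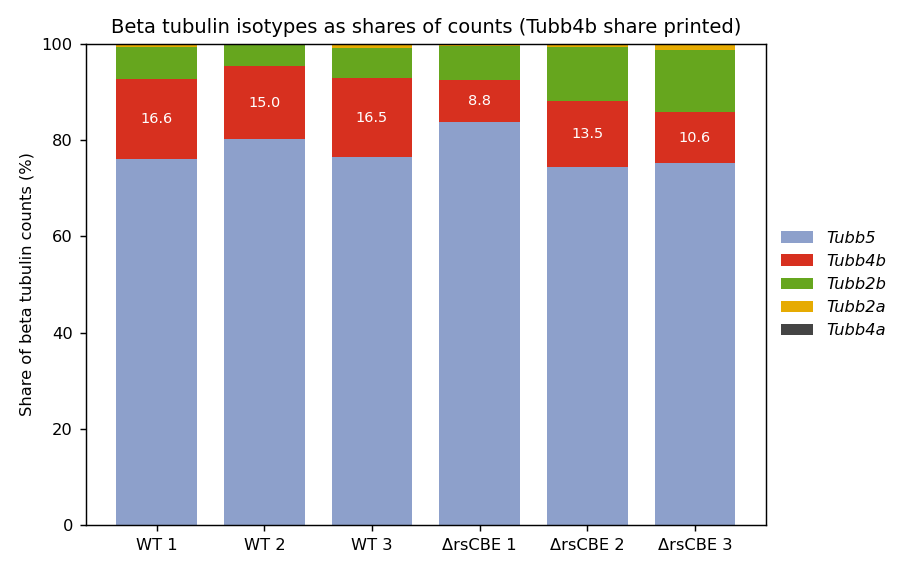
Share of the beta tubulin counts (percent) taken by each isotype, one stacked bar a library. The Tubb4b segment is 15.0% to 16.6% in WT and 8.81% to 13.5% in ΔrsCBE, and the Tubb2b segment is wider in ΔrsCBE replicates 2 and 3.

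Alpha tubulins, the partners of beta tubulin in the dimer, had few counts. Tuba1b (minus strand of chromosome 15, from 98931425 to 98934565), a widely expressed alpha isotype, had 15, 6 and 24 counts in the WT libraries and 13, 11 and 6 in the ΔrsCBE libraries. This amounts to 24.3, 14.7 and 19.0 CPM for WT and 15.7, 11.4 and 7.58 CPM for ΔrsCBE. The highest ΔrsCBE library exceeded the lowest WT library, and the log2 difference was -0.75 (SE 0.39). Tuba1a, the alpha isotype that dominates in developing neurons, had 1 to 9 counts in WT and 4 to 10 in ΔrsCBE. Tuba1c ranged from 0 to 8 counts and Tuba4a from 1 to 11 counts, with overlapping groups for both. The alpha tubulin rows were also added up, together with the copies that carry a Tuba symbol. Genes of other names that share windows with the Tuba1 genes, such as Gm17383 and Gm49450, were not in the sum. The values were 42.2, 36.8 and 39.6 CPM for WT and 49.6, 24.8 and 36.6 CPM for ΔrsCBE. That sum overlapped between the genotypes (log2 difference -0.12, SE 0.27). The same sum for beta tubulin averaged 1489 ± 121 CPM for WT and 919 ± 144 CPM for ΔrsCBE (SD, n = 3), at a log2 difference of -0.69 (SE 0.11). The alpha sum was thus far below the beta sum in the same libraries, and the shared windows given above were highest for the Tuba1 genes; their part in this was not tested.

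Gamma tubulin overlapped between the genotypes; whether it differed from the beta tubulins in this was not tested. Tubg1 (plus strand of chromosome 11, from 101119938 to 101126419) stood at 30.8, 34.3 and 26.9 CPM in the WT libraries and at 30.3, 25.8 and 29.0 CPM in the ΔrsCBE libraries. The log2 difference of -0.07 was smaller than its SE of 0.28, at 14 to 34 counts per library. The sign turned (0.03) in the 4 libraries with at most 1 Xist count.

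Stmn1 (plus strand of chromosome 4, from 134468320 to 134473843), which is known to be abundant in dividing cells, varied most among the better measured members. It stood at 109, 56.4 and 60.2 CPM in the WT libraries and at 19.4, 74.4 and 41.7 CPM in the ΔrsCBE libraries. ΔrsCBE replicate 2 lay above 2 WT libraries, so the groups overlapped, and the coefficient of variation was 38.8% in WT and 61.3% in ΔrsCBE. The log2 difference was -0.69 (SE 0.44). It was -1.29 without ΔrsCBE replicate 2 and -1.93 in the 4 libraries with at most 1 Xist count, and it was past the threshold in both. It was -0.35 without WT replicate 1 and -0.33 without ΔrsCBE replicate 1, not past the threshold in either, so single libraries move this value in both directions.

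Read against the whole table, 5 of the 10 members passed the count filter: Tubb4b, Tubb5, Tuba1b, Tubg1 and Stmn1. Of these, Tubb4b and Tubb5 had an adjusted p-value under 0.05 in edgeR's quasi-likelihood test over all 7792 tested genes, both lower in ΔrsCBE. In that comparison 1.69% of all tested genes passed, 1.49% passing as lower and 0.205% as higher. The ranges of the genotypes did not overlap for Tubb4b and Tubb5, which held for 16.1% of all tested genes, and for 8.92% with the ΔrsCBE libraries below. Nothing is read from these counts, because the members were chosen on the same contrast.

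The wider microtubule machinery was compared through a list of 83 further genes chosen by function: other tubulins, the gamma-tubulin ring complex, tubulin folding, other stathmins, TTC5, tubulin modification, microtubule binding, and severing or depolymerising factors. Of these, 50 passed the count filter, 2 passed the threshold, both lower in ΔrsCBE, where 1.69% of all tested genes passed. An unadjusted p-value under 0.05 was found for 5 of the 50 and for 798 of all 7792, so the list was near the background by this measure. The median log2 fold change of the 50 was -0.02, against 0.01 for all tested genes. Ckap5, a polymerase that lengthens microtubule plus ends, stood at 315, 378 and 325 CPM in the WT libraries and at 166, 247 and 163 CPM in the ΔrsCBE libraries. It fell by 0.80 on the log2 scale (SE 0.15; adjusted p 0.00235, edgeR), and the groups did not overlap. Fignl1, an ATPase related to the severing enzyme fidgetin and known for its part in recombination repair, stood at 32.4, 46.6 and 34.8 CPM in the WT libraries and at 9.68, 21.7 and 7.58 CPM in the ΔrsCBE libraries. It fell by 1.45 on the log2 scale (SE 0.36; adjusted p 0.0304, edgeR). That call was lost with the DESeq2 Wald test (adjusted p-value 0.0748) and without WT replicate 2 (edgeR adjusted p-value 0.116), WT replicate 3 (0.135), ΔrsCBE replicate 1 (0.0811) or ΔrsCBE replicate 3 (0.24); over all alternatives its adjusted p ran from 0.00111 to 0.24, and that of Ckap5 from 4.5e-06 to 0.0416. Kif2c, a kinesin that depolymerises microtubule ends, had separate groups, 19.5, 34.3 and 42.0 CPM for WT against 9.68, 18.6 and 11.4 CPM for ΔrsCBE, at a log2 difference of -1.29 (SE 0.36) that missed the threshold (adjusted p 0.0659, edgeR). It passed with no count filter (adjusted p 0.0286), with a filter of at least 1 CPM in 3 libraries (0.0243), without WT replicate 1 (0.0228) and without ΔrsCBE replicate 2 (0.0161); the highest adjusted p was 0.579, without WT replicate 3.

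By function, 0 genes passed in the folding, ring complex and modification sets by edgeR or by the DESeq2 Wald test; 1 folding gene (Tcp1) and 1 ring complex gene (Cdk5rap2) had an unadjusted edgeR p-value under 0.05. Among 15 tested folding genes, which encode prefoldin, the CCT chaperonin and the tubulin cofactors, log2 fold changes ran from -0.39 (Pfdn1) to 0.29 (Cct4), with adjusted p-values of 0.802 and 0.765 by edgeR. The 7 tested genes of the gamma-tubulin ring complex and its anchors ran from -0.63 (Nedd1, edgeR adjusted p-value 0.603) to 0.16 (Tubgcp5, 0.874). Ttc5, the autoregulation factor, averaged 149 CPM in WT and 152 CPM in ΔrsCBE, at a log2 difference of 0.01 (adjusted p 0.988, edgeR). In the modification set the 7 tested genes ran from -0.32 (Ttll5, a polyglutamylase, edgeR adjusted p-value 0.622) to 0.27 (Sirt2, a deacetylase, 0.852). The microtubule-binding set ran from the value of Ckap5 to 0.35 (Camsap1, a minus-end binder, edgeR adjusted p-value 0.667), and the severing set from that of Fignl1 to 0.11 (Katna1, the katanin catalytic subunit, 0.950). The stathmins Stmn2, Stmn3 and Stmn4 are listed at 0 in each library, so Stmn1 was the one stathmin detected.

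**Figure D3:**
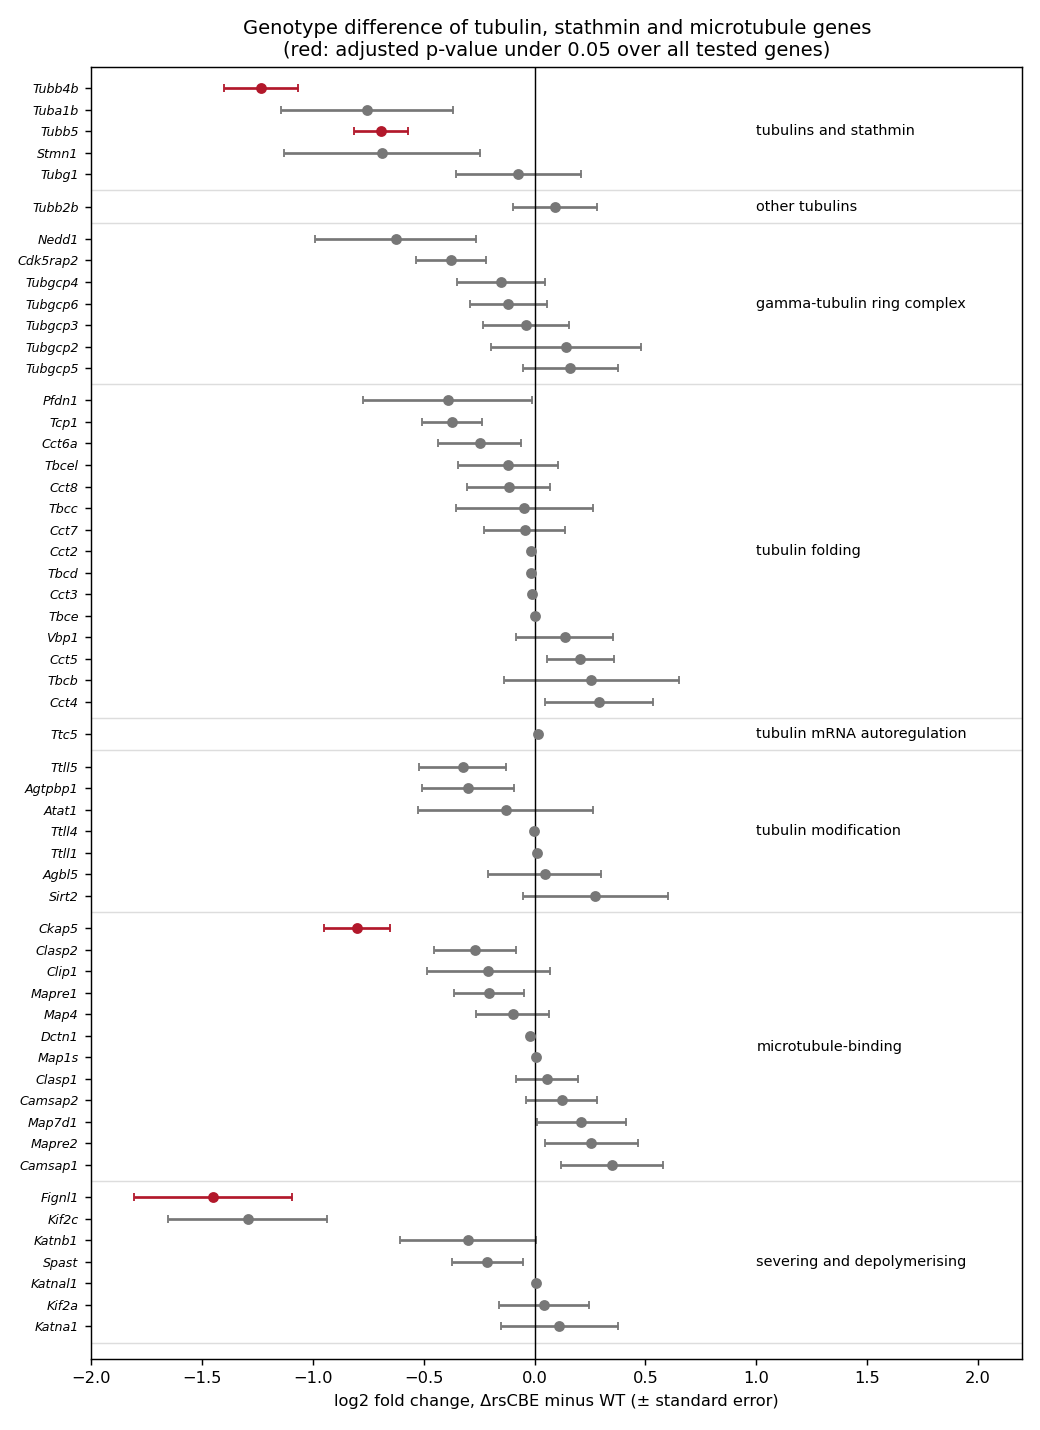
Log2 fold change (ΔrsCBE minus WT) with its standard error for the 5 tested members and the 50 tested genes of the microtubule list, grouped by function; no error bar is drawn for genes within 0.03 of 0, where it could not be derived stably. Tubb4b, Tubb5, Ckap5 and Fignl1 are drawn in red (adjusted p-value under 0.05 over all genes), and most other genes lie near 0.

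The genes whose profile over the 6 libraries was most like that of Tubb4b were Cenpf, Tmpo, Pwwp2a, D6Wsu163e and Anp32b-ps1, ranked by Pearson correlation of log2 CPM over the 7791 other tested genes. Their coefficients were 0.998, 0.997, 0.996, 0.996 and 0.993. All points share the same 6 libraries and the split between the genotypes, which alone gives high values, so the coefficients only rank genes. Cenpf, a kinetochore protein of dividing cells, stood at 276, 314 and 324 CPM in the WT libraries and at 102, 169 and 87.1 CPM in the ΔrsCBE libraries. Tmpo, a protein of the nuclear lamina, had 713 ± 5.79 and 363 ± 86.3 CPM (SD, n = 3). Pwwp2a matched in shape but not in size, with 159 ± 1.36 and 149 ± 2.85 CPM. Among the other members, Tubb5 had a coefficient of 0.886 (rank 254), Tuba1b 0.718, Stmn1 0.674 and Tubg1 0.220. In the ΔrsCBE libraries the members differed in order: replicate 2 was the highest for Tubb4b and Stmn1, and replicate 1 was the highest for Tubb5, Tuba1b and Tubg1.

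**Figure D4:**
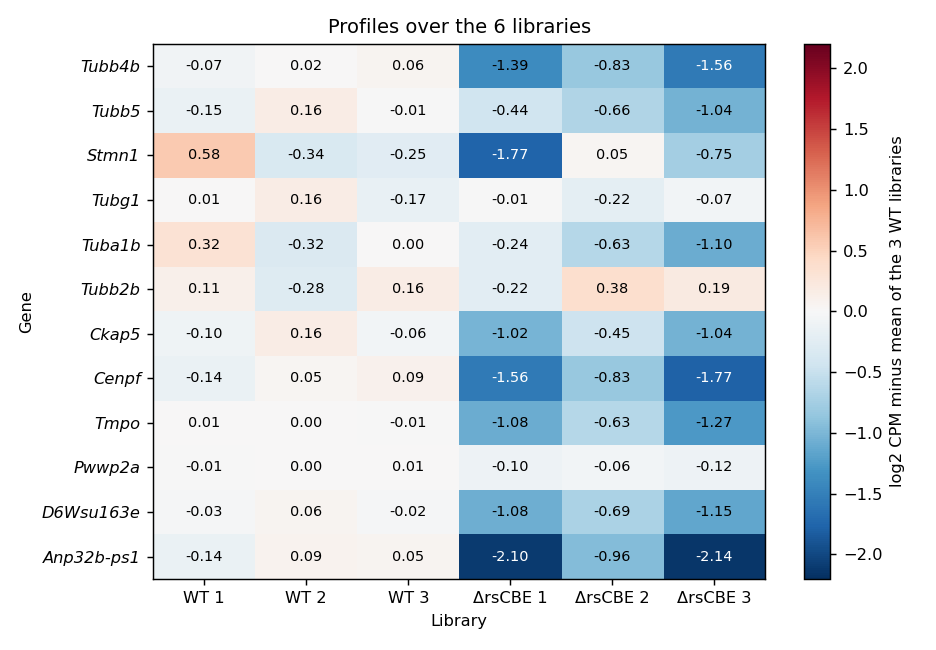
Log2 CPM minus the mean of the 3 WT libraries, for tested members, Tubb2b, Ckap5 and the genes most like Tubb4b; rows are genes, columns are libraries, and red or blue marks values above or below the WT mean. Tubb4b is at -1.39, -0.83 and -1.56 in ΔrsCBE replicates 1 to 3, Tubb5 at -0.44, -0.66 and -1.04, and Tubg1 stays within 0.22 of 0.

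As a sum, markers of dividing cells were lower in ΔrsCBE, as were Tubb4b and Tubb5. A list of 12 cell-cycle genes (Mki67, Top2a, Ccna2, Ccnb1, Ccnb2, Cdk1, Bub1, Aurkb, Plk1, Birc5, Cenpf and Ube2c) summed to 5214 to 5924 CPM in WT, against 2274, 3530 and 2195 CPM in the ΔrsCBE libraries. Of its 10 tested genes 8 passed the threshold, all lower in ΔrsCBE, where 1.49% of all tested genes passed as lower. None of the 12 was at 0 in all libraries. ΔrsCBE replicate 2, the highest of its group for Tubb4b, was also the highest in this sum, whereas Tubb5 was highest in ΔrsCBE replicate 1. Mki67 supplied most of the sum, with means of 3569 CPM in WT and 1822 CPM in ΔrsCBE. Within ΔrsCBE, Mki67, Top2a, Ccna2, Ccnb1, Cdk1, Plk1, Birc5 and Cenpf were highest in replicate 2. Aurkb and Ccnb2 were highest in replicate 1, and Bub1 and Ube2c in replicate 3. Part of this list was known to be lower before it was drawn up, and its part in the tubulin values was not tested. Erythroid, T and NK cell and platelet markers were near 0. Of the erythroid genes, Hba-a1 had at most 0.792 CPM, and Hba-a2, Hbb-bs, Hbb-bt, Klf1 and Alas2 were at 0. The 6 T and NK cell genes summed to at most 2.53 CPM, with Cd3e, Cd3g, Cd8a, Nkg7 and Klrb1c at 0, and the 5 platelet genes to at most 1.62 CPM, with Pf4, Ppbp, Gp9 and Gp1bb at 0. The 7 myeloid genes summed to 53.1 to 83.4 CPM in WT and 54.5 to 68.2 CPM in ΔrsCBE, most of it Itgam, while Elane and S100a8 were at 0. Lyz2 and S100a9 were at 0 counts in the WT libraries but had 2, 4 and 2 counts and 2, 1 and 3 counts in the ΔrsCBE libraries; their part in the tubulin values was not tested. The 4 plasma cell genes, of which Sdc1 is also made by pre-B cells, summed to 98.1 to 120 CPM in WT and 119 to 147 CPM in ΔrsCBE. Among them Xbp1 averaged 38.7 CPM in WT and 57.2 CPM in ΔrsCBE (adjusted p 0.294, edgeR). Prdm1 averaged 9.41 CPM in WT and 6.07 CPM in ΔrsCBE, with overlapping groups.

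Because Tubb4b and Tubb5 were lower together, the 250 bases before their RefSeq starts (GRCm38.p6) were searched for letters known from promoters of cell-cycle genes: the CCAAT box, bound by NF-Y, and the CHR element, written TTTGAA or TTCGAA, bound by the MuvB complexes. Both strands were searched, and the capitals mark matches. The Tubb4b window is chr2:25224703-25224952 and the Tubb5 window chr17:35838302-35838551, both on the minus strand and printed 5′ to 3′ of the gene.
Tubb4b: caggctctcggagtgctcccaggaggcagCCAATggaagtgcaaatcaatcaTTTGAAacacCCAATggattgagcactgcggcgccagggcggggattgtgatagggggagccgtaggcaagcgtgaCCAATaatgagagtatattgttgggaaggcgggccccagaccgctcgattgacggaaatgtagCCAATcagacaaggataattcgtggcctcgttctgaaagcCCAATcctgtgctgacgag
Tubb5: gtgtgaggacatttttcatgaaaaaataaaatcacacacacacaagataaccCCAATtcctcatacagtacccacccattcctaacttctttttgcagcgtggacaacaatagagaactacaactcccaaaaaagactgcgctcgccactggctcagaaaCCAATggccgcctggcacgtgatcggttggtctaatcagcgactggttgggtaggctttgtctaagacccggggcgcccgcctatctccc
Tubb4b held CCAAT 5 times and TTTGAA 1 time. Among all 32851 promoter windows of the same length, 0.213% held CCAAT at least 5 times and 16.0% held TTTGAA. Tubb5 held CCAAT 2 times, as 10.1% of windows did at least, and neither CHR form was in its window; TTCGAA was in 1.34% of all windows. Of the 7 members with an entry in the promoter table, Tuba1a and Tuba1c held CCAAT 1 time each, and Tuba1b, Tuba4a and Tubb2a held none of the motifs. A match of letters is a description of the sequence, not a measured binding site.

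**Figure D5:**
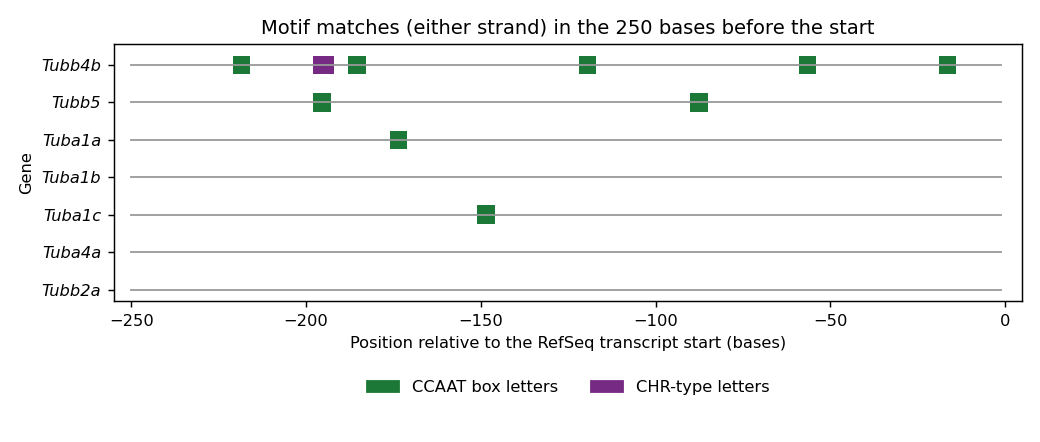
Positions of CCAAT (green) and TTTGAA (purple) in the 250 bases before the RefSeq start of 7 members, either strand; the axis counts bases from the start. Tubb4b holds 5 CCAAT matches spread over the window and 1 TTTGAA match, Tubb5 holds 2 CCAAT matches, and the other genes hold at most 1.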

How the data were processed

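RNA-seq counts came from 6 libraries, 3 per genotype, grouped by the titles and matched to columns by library name. The authors deposited whole-number counts per gene symbol without normalization; the submitters' processing notes name Trim Galore 0.6.10, STAR 2.7.11, HTSeq and DESeq2 and the build mm10. Per the labels' protocols, sorted pre-B cell RNA was depleted of ribosomal RNA and made into stranded libraries. The annotation used for counting is not given in the sources used here.

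From these counts, genes were kept with filterByExpr (minimum count 10), scaled by TMM (factors 0.978 to 1.02) and tested with edgeR 4.0.16 in R 4.3.3 (glmQLFit, robust; glmQLFTest), with genotype as the sole factor and Benjamini-Hochberg adjustment over all tested genes at 0.05. Standard errors (SE) are the absolute log2 difference divided by the root of its F. CPM used TMM-scaled library sizes, log2 CPM a prior count of 2, and levels per kilobase the union of GENCODE M21 exons. The 3-count floor and the 95% Wilson intervals cover counting error only. Coding sequences were aligned with edlib.

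The members, gene lists, alternatives and motifs were chosen with earlier results of these data known. Named genes are the members, list genes past the threshold, the highest and lowest tested gene of each functional set, the 5 genes most like Tubb4b and the markers at 0. Tcp1, Cdk5rap2, Kif2c, Lyz2, S100a9, Xbp1 and Prdm1 were named after their values were seen. Alternatives covered scaling, test, filter, the replicate number as a block, each library left out, the libraries with at most 1 Xist count, and summed gene copies. Same-numbered libraries are not tied by the labels.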

Additional observations from a re-analysis of the deposited data

How the results depend on the processing

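Tubb4b kept its direction and its side of the threshold in every alternative that left it a row of its own. With the beta tubulin rows summed, the sum had -0.69 and was past it as well. Tubb5 supplied most of that sum, so it does not bear on Tubb4b alone. The count of 2 members past the threshold stayed at 2 or rose to 3 (without ΔrsCBE replicate 2, where Stmn1 was added). In the 4 libraries with at most 1 Xist count it was 2, with Stmn1 in place of Tubb5. Tubg1 changed sign there, to a log2 fold change of 0.027. The microtubule list had 1 gene past the threshold, Ckap5, with the DESeq2 Wald test, 3 with Kif2c added under both other count filters, and 1 to 3 when each library was left out in turn. Among all genes, 132 passed; leaving out 1 library gave between 59 and 187 genes, with 59 without WT replicate 3 and 59 without ΔrsCBE replicate 3. The causes were not tested.

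Same-numbered libraries of the genotypes correlated at 0.013, 0.02 and 0.009 in their deviations from the group means, which shows no pairing by number. Counting noise at this depth also lowers such values, so they cannot decide whether the libraries were paired. With the replicate block Tubb4b had a log2 fold change of -1.28, and 2 members and 2 list genes passed. Depth limits Tuba1a, Tuba1c, Tuba4a and Tubb2a, tested with no count filter at log2 fold changes of 0.26, -0.96, 1.35 and -0.45, none past the threshold; Tubb6, at 0 counts, could not be tested.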

Other observations

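Delta and epsilon tubulin, which serve centrioles, were read at few counts. Tubd1 had 11.1 ± 6.25 CPM in WT and a mean of 7.01 CPM in ΔrsCBE, and Tube1 had 7.03 ± 4.50 and a mean of 2.28 CPM (n = 3); both were below the count filter, and their groups overlapped. Among the processed copies, Tubb4b-ps1 had 6, 8 and 17 counts in the WT libraries (replicates 1 to 3) and 7, 10 and 4 in those of ΔrsCBE.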
